A study of Mus musculus with 16 samples.

Results

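Expression of 10 genes of Nodal and Lefty signalling was followed in mouse embryonic stem cells (ESCs). The genes were Nodal, Gdf3, Tdgf1, Acvr2b, Tgfbr2, Foxh1, Lefty1, Lefty2, Cer1 and Smad7, taken by symbol from the 26127 genes in the deposited table. Earlier results of these data were known when they were chosen. RNA was sequenced from 16 libraries, of which the labels give 8 as wildtype (WT), 4 as Dnmt1-/- (Dnmt1 KO) and 4 as Dicer/Dnmt1 -/- (Dicer/Dnmt1 KO). Dnmt1 encodes the enzyme that keeps DNA methylated through cell division, and Dicer1 encodes the nuclease that cuts the precursors of microRNAs. The study's methods describe culture in serum with leukaemia inhibitory factor, with or without feeder cells, and deletion of loxP alleles by a Cre recombinase that tamoxifen switches on. From the Dnmt1 loxP/loxP line, CRISPR/Cas9 editing gave both a line with conditional Dicer alleles and a line in which Dicer was deleted beforehand, each picked as single-cell colonies. The labels do not decide which of them the Dicer/Dnmt1 KO libraries come from, so Dicer1 loss may be recent or long-standing, and a difference between the 2 knockouts can also hold a difference between lines. All 16 libraries are labelled as E14 background, while the methods give strain C57BL/6 for the parent of the conditional lines, which leaves the origin of the cells uncertain. The labels give neither the day after deletion, nor which cultures held feeders, nor whether WT cells received tamoxifen. Titles number the replicates and add the letter A or B, whose meaning is unstated.

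Nodal is a secreted signal of the transforming growth factor family that acts through activin receptors and the Cripto coreceptor encoded by Tdgf1. The receptors phosphorylate Smad2 and Smad3, which enter the nucleus with Smad4 and act with DNA-binding partners such as Foxh1. Lefty1 and Lefty2 are secreted antagonists that are themselves transcribed in response to Nodal, which makes the pathway a known negative feedback loop, and ESCs are known to express several of its genes.

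The microRNAs of the miR-290 cluster, known to be abundant in mouse ESCs, and of the miR-302 cluster are known to need Dicer1 for their production. In the RefSeq set used, 5 microRNAs of these clusters share the same seed, and they need not be the whole family. Their mature sequences are shown because the seed is the part that pairs with messenger RNA and because a stretch complementary to it lies in several of the 10 genes. The sequences are from RefSeq on build GRCm38.p6, 5′ to 3′, with bases 2 to 8, the seed, in capitals. The microRNAs themselves were not measured in these libraries.
miR-291a-3p: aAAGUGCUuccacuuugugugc
miR-294-3p: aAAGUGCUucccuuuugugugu
miR-295-3p: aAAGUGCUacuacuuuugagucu
miR-302b-3p: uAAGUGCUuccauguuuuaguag
miR-302d-3p: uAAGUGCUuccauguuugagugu

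The complement of this seed reads AGCACTT, and the longest annotated transcript of each gene (GENCODE M1, build NCBIM37) was searched for it on the transcript strand of the 3′ untranslated region (3′ UTR). Both Lefty1 and Lefty2 held AGCACTT followed by A, an 8-base match. Nodal held only the 6 bases GCACTT, which are contained in AGCACTT. Matches are given in capitals inside 30 bases of transcript, each within 1 exon, for both Lefty genes, for their ligand and for the gene with the most matches.
Lefty1, chr1:182868333-182868362, plus strand: actgtatgcgaAGCACTTAcatgtatagat
Lefty2, chr1:182828037-182828066, plus strand: cacccagtttaAGCACTTAcatgggtaaat
Nodal, chr10:60887968-60887997, plus strand: ccagagaggtggGCACTTgtccaagagggg
Tgfbr2, chr9:115996878-115996907, minus strand: tcaaaacctaaAGCACTTAttttcaatcta

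The Lefty1 match began 238 bases after the stop codon in a 3′ UTR of 425 bases, and the Lefty2 match 104 bases after the stop codon in one of 1290 bases. Around the match the 2 genes were identical over 13 bases. The 8 bases occurred in 1.28% of the 1014 tested genes whose 3′ UTR was within 20% of the length of that of Lefty1, and in 2.43% of the 1812 genes of a length like that of Lefty2. Both Lefty genes were put on the list as targets of the miR-290 family, so these shares do not test their matches. Tgfbr2 had a 3′ UTR of 6081 bases with 1 match of 8 bases and 2 of 7 bases (AGCACTT without the A), besides 1 of 6 bases. Of 336 tested genes with 3′ UTRs of such length, 14.6% held the 8 bases and 59.8% held AGCACTT, beside 4.54% and 14.8% with AGCACTT at the lengths of Lefty1 and Lefty2. Smad7 had 1 match of 6 bases in 1570 bases. GCACTT, alone or inside a longer match, occurred in 17.6% of tested genes with a 3′ UTR of a length like that of Nodal. At the lengths of Smad7 and Tgfbr2 it occurred in 37.9% and 85.1%. Tdgf1, Gdf3 and Cer1 held none in 1094, 903 and 855 bases, and the annotated 3′ UTRs of Foxh1 (23 bases) and Acvr2b (40 bases) held none either. A match is a stretch of letters, and no match says only that the letters are not in these windows.

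**Figure D1:**
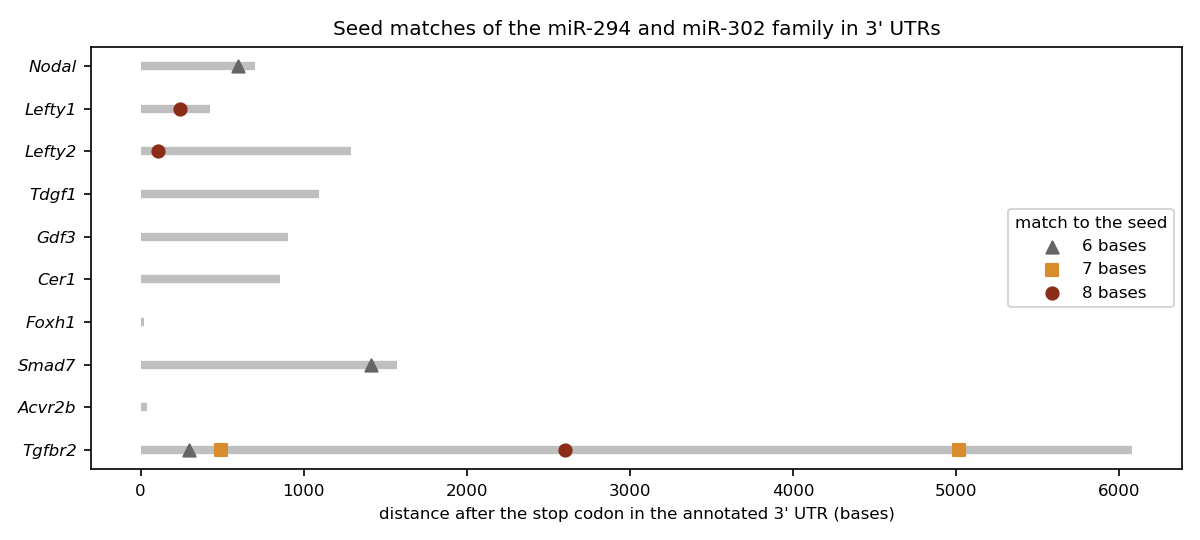
Position of stretches complementary to the seed in the annotated 3′ UTR of each gene, with the distance after the stop codon in bases on the horizontal axis and the grey bar giving the length of the 3′ UTR. Circles, squares and triangles mark AGCACTTA, AGCACTT and GCACTT, called matches of 8, 7 and 6 bases. The last A of the 8 bases lies outside the complement of the seed. Lefty1 and Lefty2 each hold an 8-base match within 238 bases of the stop codon, and Tgfbr2 holds 4 matches spread over 6081 bases.

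The libraries held 31.46 to 52.54 M reads, of which 13.9 to 25.44 M fell in listed genes, and values are the deposited log2 RPM, in which RPM is the reads of a gene scaled to the size of its library. Dnmt1 measured 4.17 to 4.63 in Dnmt1 KO, 4.49 to 4.64 in Dicer/Dnmt1 KO and 7.40 to 7.66 in WT numbers 1 to 3, but 5.69 in WT 4A and 5.55 in WT 4B. Dicer1 measured 3.68 to 4.06 in Dicer/Dnmt1 KO and 5.28 to 5.68 in Dnmt1 KO, and in WT 5.15 to 5.68 apart from 4.78 in WT 4A and 4.56 in WT 4B. WT number 4 therefore stands apart in both targeted genes, and results that rest on it are also given without it. The 8 ESC markers examined summed to 931.8 RPM or more in every library. Of them, Sox2, Nanog and Klf4 were lower in Dnmt1 KO against WT and Utf1 was lower in Dicer/Dnmt1 KO, and in Dicer/Dnmt1 KO against Dnmt1 KO Sox2, Nanog and Esrrb were higher and Utf1 lower. Pou5f1, Zfp42 and Dppa4 passed in no comparison. A and B libraries sharing a number were mostly closer to each other than to the rest of their group: over tested genes, log2 differences had a standard deviation (SD) of 0.25 to 0.36 within a WT number, beside 0.33 to 0.75 between numbers. Treating them as separate samples makes p-values smaller than averaging them, so member counts are given both ways. Nothing states that libraries came from separate cultures, so p-values measure only the spread between these libraries.

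Of the 10 genes, 9 were tested, meaning that they exceeded 1 RPM in at least 4 libraries. Cer1 did not. limma was fitted to all 12892 genes tested, and a Benjamini-Hochberg (BH) adjusted p under 0.05 over those genes was the threshold. In the comparison of Dnmt1 KO with WT, 3 of the 9 genes passed (Nodal, Lefty2 and Tgfbr2), beside 41% of all tested genes. All 3 were higher, where 23.5% of all genes were called higher and 17.5% lower. In 2 of the 9, Nodal and Tgfbr2, the groups did not overlap, beside 23.2% of all genes. With A and B averaged, those 2 genes still passed, beside 17.7% of all genes. With a trend on transcript length removed from each library, a 4th gene, Tdgf1, passed as lower (log2 fold change -0.48, adjusted p = 0.0108).

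When Dicer/Dnmt1 KO was compared with WT, 5 of the 9 genes passed, beside 61.9% of all genes tested. Lefty1, Lefty2, Gdf3 and Tgfbr2 were higher (31.9% of all genes were called higher), and Tdgf1 was lower (30.1% were called lower). The groups did not overlap for any of these 5, as for 41.4% of all genes, and all 5 passed with A and B averaged, beside 39.8%. Removing the length trend, which shifted the median of all genes from 0.02 to -0.10, added Smad7 as lower (-0.35, adjusted p = 0.00364). Between the knockouts, 6 of the 9 genes passed, beside 36.3% of all genes. In Dicer/Dnmt1 KO, Lefty1, Lefty2, Gdf3 and Tgfbr2 were higher (16.9% of all genes were called higher) and Nodal and Tdgf1 lower (19.4% called lower). Groups did not overlap for 5 of the 9, that is for all of these but Tgfbr2, beside 43.2% of all genes. With A and B averaged, 3 of the 9 passed (Lefty1, Lefty2 and Gdf3), beside 9.5% of all genes. Against WT, the shares among the 9 genes were close to those of all genes and lay on either side of them depending on the rule. Both knockouts were compared with the same WT libraries, so the first 2 counts are not independent of each other.

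**Figure D2:**
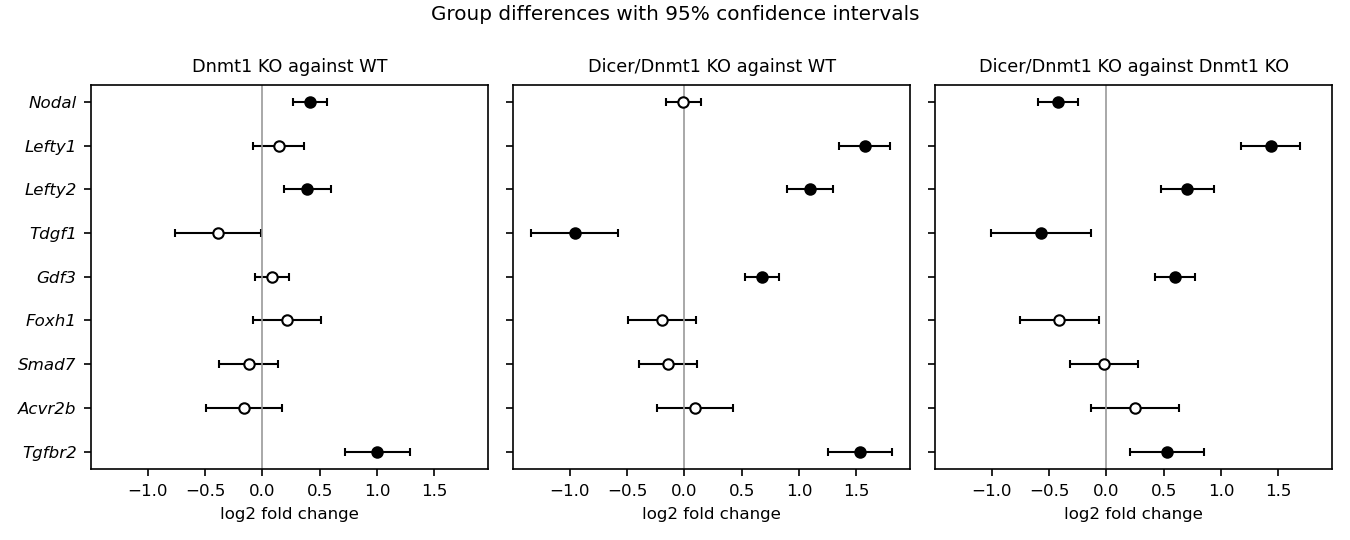
Log2 fold change of the 9 tested genes in the 3 comparisons, on the horizontal axes, with 95% confidence intervals from the limma fit as bars. Filled circles passed a BH adjusted p of 0.05. Lefty1 and Lefty2 lie at 1.57 and 1.10 in Dicer/Dnmt1 KO against WT, where Nodal lies at -0.01.

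Nodal (ENSMUSG00000037171, chromosome 10, 60880720 to 60888086 on NCBIM37, plus strand, 3 exons), the ligand that gives the pathway its name, was highest in Dnmt1 KO. It measured from 4.94 to 5.23 in the 8 WT libraries, with a median of 5.11. In Dnmt1 KO it measured 5.49, 5.43, 5.57 and 5.55 in libraries 1A, 1B, 2A and 2B, and in Dicer/Dnmt1 KO 5.04, 5.05, 5.02 and 5.24 in the same order. Every Dnmt1 KO library lay above every library of the other groups, and the Dicer/Dnmt1 KO libraries lay within the WT range or, in 2B, just above it. Compared with WT, Dnmt1 KO had a log2 fold change of 0.42 (SE 0.07, limma BH adjusted p = 0.000176). For Dicer/Dnmt1 KO it was -0.01 (SE 0.07, adjusted p = 0.92). The interval of the latter was -0.16 to 0.14, with A and B libraries treated as separate samples, which can make it too narrow. Nodal was lower in Dicer/Dnmt1 KO than in Dnmt1 KO (log2 fold change -0.43, SE 0.08, adjusted p = 0.000731). That call was lost with A and B averaged (limma adjusted p = 0.0701, with a range over all alternatives of 2.55e-05 to 0.0701).

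Gdf3 (ENSMUSG00000030117, chromosome 6, 122555421 to 122560105, minus strand, 2 exons), a ligand related to Nodal that uses the same coreceptor, passed as higher in Dicer/Dnmt1 KO against both other groups. WT libraries spanned 4.71 to 4.98 with a median of 4.85. The Dnmt1 KO libraries measured 5.04, 4.94, 4.91 and 4.82, and the Dicer/Dnmt1 KO libraries 5.52, 5.45, 5.67 and 5.46. All 4 Dicer/Dnmt1 KO libraries lay above the other 12, while Dnmt1 KO and WT overlapped. Relative to WT the log2 fold change was 0.68 (SE 0.07, limma adjusted p = 3.54e-07), and relative to Dnmt1 KO 0.60 (SE 0.08, adjusted p = 3.03e-05). Dnmt1 KO itself differed from WT by 0.08 (SE 0.07, adjusted p = 0.384).

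Tdgf1 (ENSMUSG00000032494, chromosome 9, 110842114 to 110848662, minus strand, 6 exons) encodes Cripto, the coreceptor of Nodal and Gdf3, and fell in Dicer/Dnmt1 KO. It spanned 9.04 to 10.11 in WT with a median of 9.55, where the 2 highest libraries were 4A and 4B (10.11 and 10.09). Dnmt1 KO measured 9.43 and 9.40 in number 1 and 8.86 and 8.97 in number 2, on either side of the lowest WT library. Dicer/Dnmt1 KO measured 8.50, 8.54, 8.66 and 8.68, below all other libraries. Against WT the log2 fold change was -0.96 (SE 0.18, limma adjusted p = 0.000198), which became -0.78 without WT number 4. Between the knockouts it was -0.57 (SE 0.21, adjusted p = 0.0387). That call was lost when either number 1 library of Dnmt1 KO or any 1 of the 4 Dicer/Dnmt1 KO libraries was left out, with adjusted p from 0.0555 to 0.117. The value of Dnmt1 KO against WT was -0.39 (SE 0.18, adjusted p = 0.095), and it rested on the WT libraries used: it was -0.21 without WT number 4 (adjusted p = 0.221) and -0.079 with WT numbers 1 and 2 only (adjusted p = 0.648), while it passed with WT 1A, the lowest WT library, left out (-0.46, adjusted p = 0.0335). GENCODE M1 lists a pseudogene, Tdgf1-ps2, which shared no window of 100 bases with the Tdgf1 transcript. Primed-state markers were lower beside Tdgf1 in Dicer/Dnmt1 KO but not in Dnmt1 KO: the 5 examined summed to 88.83 to 168.6 RPM in WT, 144.7 to 173.7 RPM in Dnmt1 KO and 71.42 to 77.12 RPM in Dicer/Dnmt1 KO. Of the 4 tested, 3 were lower in Dicer/Dnmt1 KO than in WT and 4 lower than in Dnmt1 KO, beside 30.1% and 19.4% of all genes. In Dnmt1 KO against WT, 1 (Dnmt3b) was higher and 1 (Otx2) lower, beside 23.5% and 17.5% of all genes. The part of the primed-state markers in the Tdgf1 values was not tested.

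Tgfbr2 (ENSMUSG00000032440, chromosome 9, 115993415 to 116084383, minus strand, 8 exons), the type II receptor for transforming growth factor beta, is not a receptor of Nodal but signals through the same Smads. It was the least expressed of the 9 genes tested, with 82 to 119 reads in a WT library. WT spanned 1.13 to 1.50 with a median of 1.33. Dnmt1 KO measured 2.00, 2.62, 2.29 and 2.39, and Dicer/Dnmt1 KO 3.11, 3.11, 2.70 and 2.50. Both knockouts lay above all WT libraries and overlapped each other. Dnmt1 KO exceeded WT by a log2 fold change of 1.00 (SE 0.13, limma adjusted p = 1.38e-05), and Dicer/Dnmt1 KO exceeded it by 1.53 (SE 0.13, adjusted p = 4.07e-08). Between the knockouts it was 0.53 (SE 0.15, adjusted p = 0.0129), a call that was lost with A and B averaged (adjusted p = 0.117) or with the length trend removed (0.24, adjusted p = 0.326). It was also lost without Dnmt1 KO 1A, Dicer/Dnmt1 KO 1A or Dicer/Dnmt1 KO 1B (adjusted p = 0.0517 to 0.054).

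Feeder fibroblast markers were higher beside Tgfbr2 in both knockouts. The 10 feeder fibroblast markers summed to 34.63 to 62.46 RPM in WT, while Dnmt1 KO had 68.99 to 83.51 RPM and Dicer/Dnmt1 KO 73.02 to 132.9 RPM. Of the 7 of them that were tested, 3 were higher in Dnmt1 KO against WT (Col1a1, Col1a2 and Col3a1) and 6 in Dicer/Dnmt1 KO, and none of the 10 was at 0 in all 16 libraries, although Lum had at most 7 reads and Dcn at most 19. The 8 primitive endoderm markers summed to 85.17 to 168.7 RPM in WT, to 226.5 to 342.7 RPM with Dnmt1 deleted and to 208.7 to 239.0 RPM with both genes deleted, and 8 of 8 were higher in Dnmt1 KO than in WT and 5 of 8 in Dicer/Dnmt1 KO. In Dicer/Dnmt1 KO against Dnmt1 KO none of the 8 was higher and 4 were lower, and of the 7 feeder markers tested 1 was higher and 0 lower. Of all genes, 16.9% were called higher there and 19.4% lower. Against WT, the shares of all genes called higher and lower were 23.5% and 17.5% for Dnmt1 KO. For Dicer/Dnmt1 KO they were 31.9% and 30.1%. The part of either cell type in the Tgfbr2 values was not tested. In bulk RNA, fewer cells of a type and less RNA per cell cannot be told apart.

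Acvr2b (ENSMUSG00000061393, chromosome 9, 119311562 to 119342619, plus strand, 10 exons) encodes a type II activin receptor that Nodal uses. WT spanned 2.81 to 3.81 with a median of 3.64, and the 2 lowest libraries were 4A (3.07) and 4B (2.81). Dnmt1 KO measured 3.35, 3.22, 3.48 and 3.39, and Dicer/Dnmt1 KO 3.47, 3.70, 3.68 and 3.58. All groups overlapped, Dnmt1 KO and WT only through WT number 4. No comparison passed: relative to WT, Dnmt1 KO was at -0.16 (SE 0.16, limma adjusted p = 0.447) and Dicer/Dnmt1 KO at 0.09 (SE 0.16, adjusted p = 0.638), and the knockouts differed by 0.25 (SE 0.18, adjusted p = 0.305). Without WT number 4 Dnmt1 KO passed as lower than WT (-0.35, adjusted p = 0.0016), and the knockouts differed by 0.25 (adjusted p = 0.0281).

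Foxh1 (ENSMUSG00000033837, chromosome 15, 76498714 to 76500378, minus strand, 3 exons), the forkhead factor that brings Smads to DNA at Nodal targets, passed in no comparison. WT spanned 2.98 to 3.77 with a median of 3.38. Dnmt1 KO measured 3.86 and 3.90 in number 1 but 3.29 and 3.37 in number 2, and Dicer/Dnmt1 KO 3.15, 3.43, 3.10 and 3.09. All groups overlapped. The largest difference lay between the knockouts, at -0.41 (SE 0.16, limma adjusted p = 0.059), with an interval of -0.76 to -0.07. It passed after median centring (-0.43, adjusted p = 0.0364), without WT number 4 (adjusted p = 0.0493), and when any of WT 1B, WT 2A, Dnmt1 KO 2A, Dnmt1 KO 2B or Dicer/Dnmt1 KO 1B was left out (adjusted p = 0.0285 to 0.047). It did not pass with A and B averaged (limma adjusted p = 0.268) or with the length trend removed (-0.22, adjusted p = 0.279). In all, it passed under 12 of 31 alternatives. Relative to WT the values were 0.21 (adjusted p = 0.244) for Dnmt1 KO and -0.20 (adjusted p = 0.237) for Dicer/Dnmt1 KO.

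Lefty1 (ENSMUSG00000038793, chromosome 1, 182865153 to 182868531, plus strand, 4 exons) had the largest difference of the 9 genes. WT spanned 6.57 to 7.13 with a median of 6.80. Dnmt1 KO measured 7.21, 6.92, 6.94 and 6.79, and Dicer/Dnmt1 KO 8.41, 8.33, 8.46 and 8.38. The 4 Dicer/Dnmt1 KO libraries lay close together and more than 1 log2 unit above every other library, while Dnmt1 KO lay mostly within the WT range. Their mean was 2.98-fold that of WT (log2 fold change 1.57, SE 0.11, limma adjusted p = 1.86e-09) and 2.70-fold that of Dnmt1 KO (1.43, SE 0.12, adjusted p = 2.51e-07). Dnmt1 KO differed from WT by 0.14 (SE 0.11, adjusted p = 0.308), with an interval of -0.08 to 0.37. Both calls of Dicer/Dnmt1 KO held under all 31 alternatives, including the average of A and B.

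Lefty2 (ENSMUSG00000066652, chromosome 1, 182823239 to 182829234, plus strand, 4 exons), on the same chromosome and strand as Lefty1, was higher in both knockouts and most in Dicer/Dnmt1 KO. WT spanned 6.98 to 7.51 with a median of 7.23. Dnmt1 KO measured 7.81 and 7.75 in number 1 and 7.50 and 7.45 in number 2, and Dicer/Dnmt1 KO 8.39, 8.45, 8.30 and 8.20. The number 1 libraries of Dnmt1 KO exceeded every WT library and the number 2 libraries did not, whereas all 4 Dicer/Dnmt1 KO libraries lay above the other 12. Relative to WT, Dicer/Dnmt1 KO was 2.14-fold higher (log2 fold change 1.10, SE 0.10, limma adjusted p = 4.33e-08) and Dnmt1 KO 1.31-fold higher (0.39, SE 0.10, adjusted p = 0.00341). The call in Dnmt1 KO was lost with A and B averaged (adjusted p = 0.101, with a range over alternatives of 4.44e-05 to 0.101). Between the knockouts the difference was 0.71 (SE 0.11, adjusted p = 0.000116).

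The coding sequences of Lefty1 and Lefty2, of 1107 bases each, were identical at 1017 positions (91.9%). Of the windows of 100 bases, the read length, 4.8% of the Lefty1 transcript and 3.07% of the Lefty2 transcript were found unchanged in the other gene. Reads from those stretches could not be placed on 1 of the 2 genes by their own sequence, so a small part of each value is uncertain.

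Smad7 (ENSMUSG00000025880, chromosome 18, 75527183 to 75555589, plus strand, 4 exons), an inhibitory Smad that blocks the receptors from inside the cell, passed in no comparison. WT spanned 5.53 to 6.18 with a median of 6.02, Dnmt1 KO measured 5.79, 5.94, 5.67 and 5.90, and Dicer/Dnmt1 KO 5.94 and 6.14 in number 1 and 5.58 and 5.55 in number 2. All groups overlapped. The log2 fold changes were -0.12 (SE 0.12, limma adjusted p = 0.449) and -0.14 (SE 0.12, adjusted p = 0.319) against WT and -0.02 (SE 0.14, adjusted p = 0.92) between the knockouts. It passed as lower in Dicer/Dnmt1 KO with the length trend removed. Without WT number 4, whose 4B library was the lowest, Dicer/Dnmt1 KO passed as lower than WT (-0.24, adjusted p = 0.0483).

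Cer1 (ENSMUSG00000038192, chromosome 4, 82527655 to 82531052, minus strand, 2 exons), a secreted antagonist of Nodal that marks the anterior visceral endoderm of the embryo, was at the limit of detection. It had no read in 10 of the 16 libraries, and a count of 0 allows up to 3 reads, or 0.0705 to 0.0954 RPM in those libraries. WT 3A had 3 reads, WT 3B and WT 4A had 1 read each, and the other 5 WT libraries had 0. Dnmt1 KO 1A had 1 read, Dnmt1 KO 1B had 9 reads and the number 2 libraries had 0, while of Dicer/Dnmt1 KO only 2A had a read. Summed, the level was 0.0152 RPM in WT (95% exact Poisson interval 0.00492 to 0.0353), 0.0692 RPM in Dnmt1 KO (0.0332 to 0.127) and 0.00722 RPM in Dicer/Dnmt1 KO (0.000183 to 0.0402), and these intervals cover counting error only. The value in Dnmt1 KO rests on 1 library, since 9 of its 10 reads came from 1B. No difference of Cer1 was tested.

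**Figure D3:**
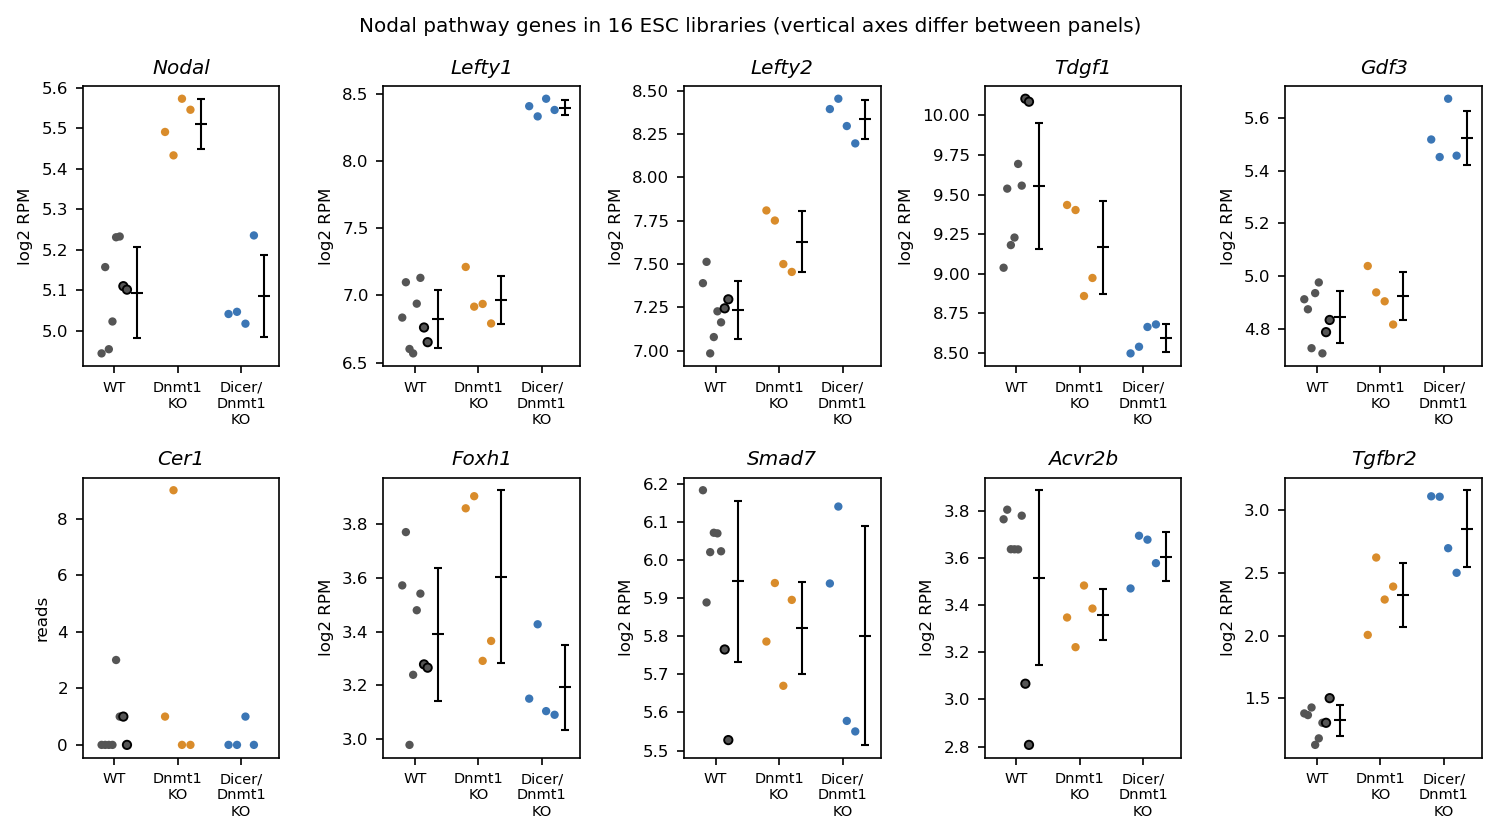
Values of the 10 genes in each library by group, as log2 RPM (as reads for Cer1) on the vertical axes, which differ between panels. Each point is 1 library in the order of its replicate label, black outlines mark WT 4A and WT 4B, and the bars give the mean and SD of a group. Lefty1, Lefty2 and Gdf3 are above all other libraries in Dicer/Dnmt1 KO, Nodal is highest in Dnmt1 KO, and Tdgf1 is lowest in Dicer/Dnmt1 KO.

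Levels of different genes were compared per length, as RPM per kilobase of the longest annotated transcript. In WT the order was Tdgf1 (403.8 ± 114 RPM per kilobase, SD, n = 8), Lefty1 (70.6 ± 10.8), Lefty2 (61.3 ± 7.19), Nodal (16.4 ± 1.27), Smad7 (14.5 ± 1.98), Gdf3 (13.5 ± 0.914), Foxh1 (8.13 ± 1.38), Acvr2b (6.80 ± 1.51), Tgfbr2 (0.31 ± 0.026) and Cer1 near 0. The neighbours Lefty1 and Lefty2, Nodal and Smad7, Smad7 and Gdf3, and Foxh1 and Acvr2b overlapped between WT libraries. In Dicer/Dnmt1 KO the level of Lefty1 reached 208 ± 7.94 RPM per kilobase (n = 4) and overlapped that of Tdgf1 at 201.1 ± 12.6, and Lefty2 followed at 131 ± 10.2. There Gdf3 (21.7 ± 1.59) exceeded Nodal (16.2 ± 1.17) in every library, whereas in Dnmt1 KO Nodal (21.8 ± 0.929) exceeded Gdf3 (14.3 ± 0.911).

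The antagonists and the ligand moved apart in Dicer/Dnmt1 KO. The level per length of Lefty1 and Lefty2 together was 7.30 to 9.41 times that of Nodal in WT, with a median of 7.72. It was 8.49, 7.84, 6.55 and 6.25 times that of Nodal in Dnmt1 KO 1A, 1B, 2A and 2B, and 22.0, 21.6, 22.3 and 18.04 times in the Dicer/Dnmt1 KO libraries. The 4 Dicer/Dnmt1 KO libraries were at least 18.04, above every other library, and Dnmt1 KO and WT overlapped. The ratio of Lefty1 to Lefty2 per length was 0.977 to 1.49 in WT, 0.857 to 1.03 in Dnmt1 KO and 1.40 to 1.74 in Dicer/Dnmt1 KO, where 1 of the 4 libraries lay within the WT range. Tdgf1 was 18.6 to 34.7 times Nodal in WT, 10.6 to 17.0 times in Dnmt1 KO and 11.8 to 13.6 times in Dicer/Dnmt1 KO. The lowest WT library thus exceeded all 8 knockout libraries in this ratio. These ratios are descriptions without a test.

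**Figure D4:**
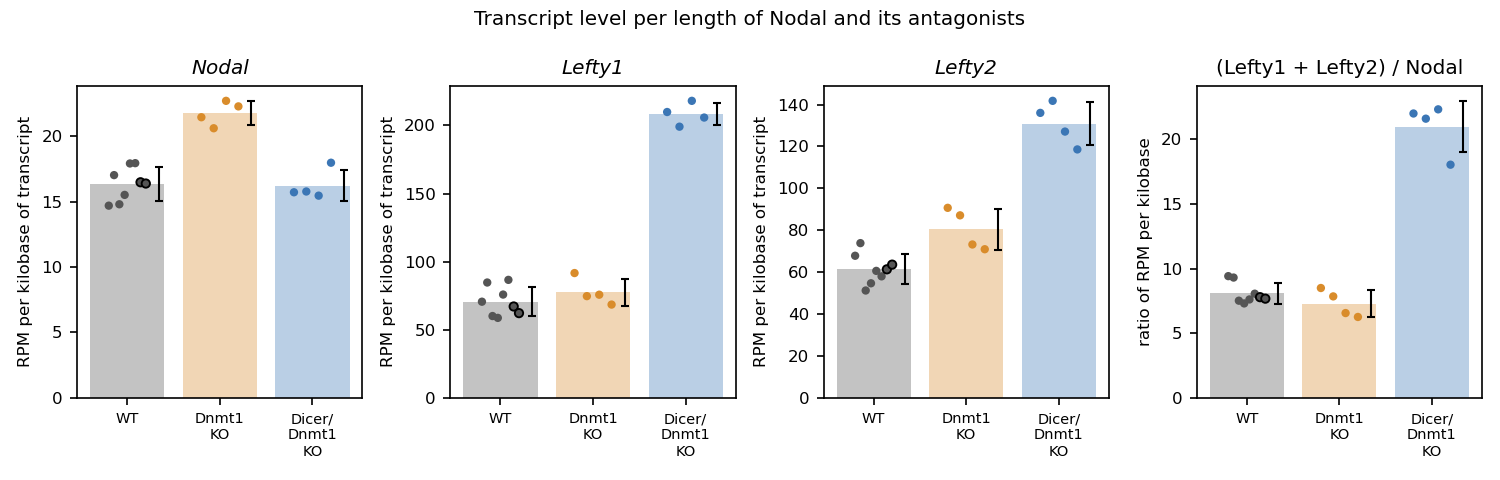
Transcript level per length (RPM per kilobase) of Nodal, Lefty1 and Lefty2 and, at the right, the ratio of the summed Lefty levels to Nodal. Bars are group means, points are libraries (WT 4A and WT 4B outlined) and error bars are the SD. The ratio is 18.04 to 22.3 in Dicer/Dnmt1 KO and 6.25 to 9.41 in all other libraries.

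A wider list of 50 genes of the pathway, none of them among the 10, was examined for the same comparisons, of which 43 could be tested. Against WT, 14 rose and 5 fell in Dnmt1 KO (44.2% of 43, beside 41% of all genes), with a median log2 fold change of 0.16 beside 0.04 over all genes. With the length trend removed 11 rose and 9 fell, where 18.7% of all genes rose and 28.7% fell. For Dicer/Dnmt1 KO, 24 rose and 6 fell against WT (69.8%, beside 61.9%), with a median of 0.41 beside 0.02. After median centring 21 rose and 10 fell, where 28.4% of all genes rose and 34.6% fell, and with the length trend removed 20 rose and 11 fell, where 24.4% and 38.4% did. Between the knockouts, 11 rose and 2 fell (30.2%, beside 36.3%), with a median of 0.21 beside -0.01. With A and B averaged the counts were 6, 20 and 3 in the 3 comparisons, beside 17.7%, 39.8% and 9.5% of all genes, so that the list's shares (14.0%, 46.5% and 6.98%) lay on both sides of the background. With a common correlation of A and B they were 8, 22 and 4, beside 21.1%, 44.6% and 16.4%.

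The counts by role are small and stand beside the shares of all genes called higher or lower than WT, which were 23.5% and 17.5% for Dnmt1 KO and 31.9% and 30.1% for Dicer/Dnmt1 KO. Calls of single genes of this list are from the fit with A and B as separate samples. With A and B averaged, the list's calls went from 19 to 6 in Dnmt1 KO against WT. They went from 30 to 20 in Dicer/Dnmt1 KO against WT and from 13 to 3 between the knockouts. Several of the calls named here are therefore lost under averaging. Among the 8 tested ligands, 3 rose and 1 fell in Dnmt1 KO against WT, and 5 rose and 2 fell in Dicer/Dnmt1 KO. Inhba, which encodes the activin A subunit, rose by a log2 fold change of 0.84 (SE 0.22, limma adjusted p = 0.00474) in Dnmt1 KO, and Tgfb3 by 0.91 (SE 0.29, adjusted p = 0.0172). For Tgfb3 the groups overlapped. Gdf1, a ligand related to Gdf3, was higher in Dicer/Dnmt1 KO than in WT (1.49, SE 0.18, adjusted p = 2.49e-06) and than in Dnmt1 KO (0.67, SE 0.21, adjusted p = 0.0207). It lies within the annotated Lass1 locus on the same strand, so its reads may be shared. Inhbb, the activin B subunit, was higher in Dicer/Dnmt1 KO than in Dnmt1 KO (0.96, SE 0.24, adjusted p = 0.00536). Bmp7 was lower than in WT in both knockouts, with log2 fold changes of -1.12 (SE 0.10, adjusted p = 2.42e-07) for Dnmt1 KO and -0.83 (SE 0.10, adjusted p = 3.48e-06) for Dicer/Dnmt1 KO. Bmp4 was lower in Dicer/Dnmt1 KO than in WT (-0.86, SE 0.21, adjusted p = 0.00173, with groups overlapping) and than in Dnmt1 KO (-1.16, SE 0.24, adjusted p = 0.0012). Both encode bone morphogenetic proteins, which signal through Smad1 and Smad5.

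Of the 7 tested receptors and coreceptors, 3 rose and 1 (Acvr1b, with groups overlapping) fell in Dnmt1 KO, and 5 rose and none fell in Dicer/Dnmt1 KO against WT. The latter included Tgfbr1 (0.76, SE 0.07, limma adjusted p = 4.66e-08), the type I receptor that works with Tgfbr2. Bmpr2, a type II receptor for bone morphogenetic proteins, rose most in Dicer/Dnmt1 KO (1.20, SE 0.20, limma adjusted p = 5.51e-05). Of the 7 Smads and nuclear partners, 1 fell and none rose in Dnmt1 KO against WT, while in Dicer/Dnmt1 KO Smad2 (0.36) and Smad3 (0.53) rose and Smad4 (-0.21, with groups overlapping) fell. The 14 inhibitors included 5 that rose and 2 that fell in Dnmt1 KO, and 7 that rose and 2 that fell in Dicer/Dnmt1 KO. Smad6, an inhibitory Smad like Smad7, had a mean log2 RPM of 0.93 ± 0.17 (SD) in WT, while Dnmt1 KO had 1.25 ± 0.21 and Dicer/Dnmt1 KO 2.27 ± 0.20. Dicer/Dnmt1 KO exceeded WT by 1.34 (SE 0.13, adjusted p = 1.53e-07) and Dnmt1 KO by 1.02 (SE 0.15, adjusted p = 6.63e-05), while Smad7 passed in neither. Fstl3, which binds activins outside the cell, rose by 0.87 in Dnmt1 KO (SE 0.22, adjusted p = 0.00447). Dand5, a secreted Nodal antagonist of the Cer1 family, fell by 0.78 on the log2 scale in Dnmt1 KO (SE 0.22, adjusted p = 0.00786). Its level was low, with a mean log2 RPM of -0.45 in Dnmt1 KO and 0.32 in WT, and the groups overlapped.

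All 3 tested proprotein convertases (Furin, Pcsk6 and Pcsk7), of which Furin and Pcsk6 are known to cleave the Nodal precursor, rose in Dicer/Dnmt1 KO against WT. Of the 7 mesendoderm genes that respond to Nodal in the embryo, 4 could be tested. Foxa2, a factor of endoderm, was at a mean log2 RPM of -2.61 ± 0.95 (SD) in WT, and at 0.27 ± 0.31 and 0.05 ± 0.26 in Dnmt1 KO and Dicer/Dnmt1 KO. Its log2 fold changes against WT were 2.88 (SE 0.42, limma adjusted p = 3.43e-05) and 2.66 (SE 0.42, adjusted p = 3.48e-05), from 2 to 18 reads in a WT library. No WT library reached 1 RPM, so Foxa2 was tested only through the knockout libraries, a choice that favours a difference. Foxa2 is also expressed in primitive endoderm, whose markers moved the same way as given above, and their part in it was not tested. Fgf8 was lower in Dicer/Dnmt1 KO (3 to 10 reads) against WT (-2.61, SE 0.55, limma adjusted p = 0.000544), but the 2 groups overlapped. It too passed the filter only through the other groups. Eomes passed in no comparison, and Gsc, Mixl1 and T were too low to test, with at most 59 reads in a library.

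**Figure D5:**
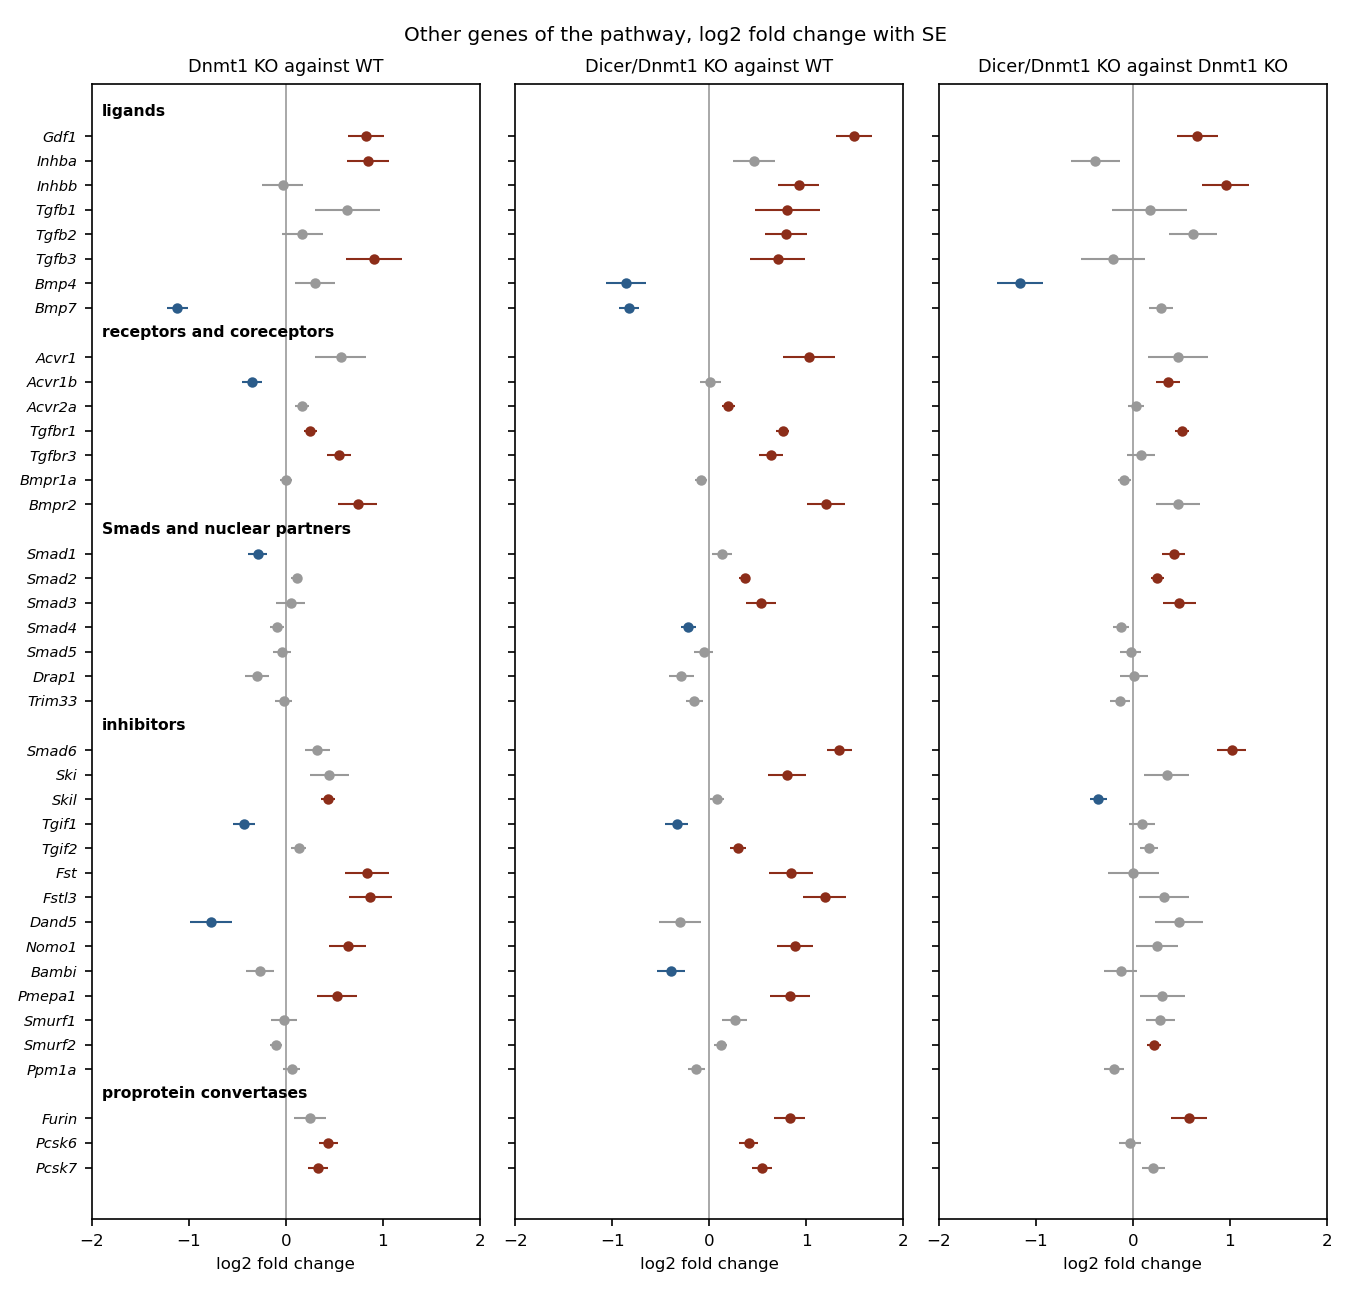
Log2 fold change of the tested ligands, receptors and coreceptors, Smads and nuclear partners, inhibitors and proprotein convertases of the wider list in the 3 comparisons, on the horizontal axes, with the SE as bars. Red and blue points passed as higher and lower (limma BH adjusted p under 0.05) and grey points did not. In the middle panel, Dicer/Dnmt1 KO against WT, 7 inhibitors are red and 2 blue, and all 3 convertases are red.

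Genes with patterns most like those of the Lefty genes and Nodal were listed by Pearson's r of log2 RPM over the 16 libraries, among 10242 genes with a mean of at least 1. For Lefty1 they were Cyfip1 (r = 0.98), Wdr1 (0.98) and Rhob (0.98). For Lefty2 they were Tubb3 (0.96), Amph (0.96) and Pbxip1 (0.96). For Nodal they were Trmt6 (0.96), Heatr3 (0.93) and Eif5 (0.92). In WT, Dnmt1 KO and Dicer/Dnmt1 KO, Rhob had a mean log2 RPM of 3.69 ± 0.20, 3.83 ± 0.14 and 4.96 ± 0.12, and Trmt6 of 4.74 ± 0.08, 5.21 ± 0.07 and 4.72 ± 0.09. The 16 points share 3 groups, pairs of A and B libraries and a depth per library with the genes compared, so these r values describe the libraries only.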

How the data were processed

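Total RNA freed of ribosomal RNA had been sequenced as stranded, paired reads of 100 bases. The authors trimmed reads (Trim Galore, listed as version 0.3.5), aligned them to NCBIM37 (TopHat2, listed as 2.0.11), dropped alignments with a mapping quality under 20 and quantified genes with SeqMonk, and the deposited values are log2 RPM of the whole library. Whether counting used strand is not given in the sources used here. Apart from genes without reads, which are written as 0.9 read, 100% of values gave whole reads, so reads and depth could be recovered. The other 35 value columns were not used.

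limma 3.58.1 in R 4.3.3 fitted 1 mean per group to log2 RPM of 12892 genes, with an intensity trend. Since the deposited unit is log2 RPM, count models were not used. The 10 genes, the gene lists and the naming rule (the 10 genes, per comparison up to 4 listed genes each way past the threshold and an absolute log2 fold change of 0.5, and 3 genes by r for Nodal and each Lefty gene) were chosen with earlier results of these data known. Marker genes and further listed genes were named after their values were seen. Transcript lengths, 3′ UTRs and coordinates came from GENCODE M1, where all 10 genes had identical coordinates, and microRNAs from RefSeq. Alternatives covered averaging, blocking, scaling, filters, a pseudocount, limma voom on recovered reads, the WT libraries used and each library left out. The main fit did not pair libraries of a number across groups. Over genes, the number 1 minus number 2 differences correlated with r of -0.02 between WT and Dnmt1 KO and -0.22 between the knockouts. Between WT and Dicer/Dnmt1 KO r was 0.42, so an effect shared by number is not excluded there. With the number as a block, Smad7 passed as lower in Dicer/Dnmt1 KO against WT (-0.24, limma adjusted p = 0.0467). A gene that the naming rule selects is not reported here.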

Additional observations from a re-analysis of the deposited data

Results flagged for a closer look

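In 3 of the 30 sets formed by a gene and a group, 1 library lay far from the others by Dixon's criterion, which flags about 1 in 20 groups by chance. Nodal in Dicer/Dnmt1 KO 2B was at 5.24 log2 RPM (5.2354, 1185 reads) beside 5.02 to 5.05 in the other 3 libraries. It stayed below all Dnmt1 KO libraries. Cer1 in WT 3A was at -4.13 log2 RPM, which is 3 reads, beside 0 or 1 read in the other WT libraries. Cer1 in Dnmt1 KO 1B was at -2.21 log2 RPM, which is 9 reads, beside 0 or 1 read in the other 3.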

How the results depend on the processing

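Of 837 comparisons of a member's log2 fold change with an alternative, 773 kept direction and side of the threshold, 17 lost the call, 27 gained it and 20 changed sign, all 20 at values that passed neither time. With A and B averaged, 3 of the 9 genes passed between the knockouts, and of the wider list 6 in Dnmt1 KO against WT and 3 between the knockouts. A common correlation of A and B (0.67) gave 8 and 4 for the latter 2. Requiring a 2-fold change left 1, 3 and 1 of the 9 genes and 2, 7 and 2 of the wider list, beside 6.99%, 12.8% and 4.57% of all genes. With the replicate block, 4, 6 and 8 of the 9 genes passed, beside 50.7%, 60.7% and 51.9% of all genes, and 21 of the wider list between the knockouts. Since the knockouts' number differences correlated at -0.22, a block with the Dnmt1 KO numbers exchanged was added after seeing the data and gave 22. That is 51.2% of the tested genes of the list, beside 53.3% of all genes. Leaving out 1 library gave 3 to 4, 5 to 5 and 4 to 7 of the 9 genes (all genes: 31.4 to 43.6%, 55.1 to 64.9% and 28.6 to 40.3%), and 15 to 22, 26 to 31 and 8 to 15 of the wider list, the 8 without Dicer/Dnmt1 KO 1B.

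Sign changes were as follows. Gdf3 in Dnmt1 KO against WT was -0.0127 with the length trend removed, and Acvr2b 0.0371 with WT numbers 3 and 4 only. In Dicer/Dnmt1 KO against WT, Nodal was 0.0655 with the replicate block, exchanged or not, or WT numbers 1 and 2 only, and -0.059 to 0.0136 with 1 library left out. Acvr2b there was -0.1057 with either block or WT numbers 1 and 2 only, -0.1048 without WT number 4 and -0.0127 to 0.1337 with 1 library left out. Between the knockouts Smad7 was -0.134 to 0.0628 with 1 library left out. The cause was not tested. Cer1 had 0 to 9 reads a library, too few to test at these depths.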
